A study of Mus musculus with 12 samples.

Results

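The hair shaft genes of SVR angiosarcoma xenografts were chosen by name: the genes called Krt31 to Krt40 and Krt81 to Krt86, which code for the hard keratins of hair, and all genes whose name starts with Krtap, which code for keratin-associated proteins. This rule took 71 of 54232 genes, 9 type I hair keratins, 5 type II hair keratins and 57 Krtap genes, after 1 pseudogene with 0 counts had been set aside. In all, 47 of the 71 had at least 1 count in some tumor, and 24, each a Krtap gene, had none. The counts were concentrated in 4 tumors: the 3 tumors of mice treated with trametinib and cediranib together, and 1 of the 3 tumors of mice treated with cediranib alone.

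SVR is a mouse endothelial line transformed with an activated ras gene, used as a model of angiosarcoma, and it was injected under the skin of the flank of 8 to 12 week old athymic nude mice. The labels give C57BL/6 as the strain. Mice received vehicle (here called control), the MEK inhibitor trametinib at 1 mg/kg, the VEGF receptor inhibitor cediranib at 3 mg/kg, or both agents at these doses (combination) by daily gavage, and RNA of 3 whole tumors per group was sequenced after capture with exome probes. Tumor cells, stroma and any skin were all of mouse origin and were not separated, all tumors came from 1 cell line, and nothing in the labels says from which of the study's treatment experiments each tumor was taken. The labels give a large or ulcerated tumor as the end of treatment and the study also describes an experiment of fixed length, so whether time on treatment differed between groups is not known here.

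A hair shaft is made by cells that leave the matrix at the base of the follicle, fill with keratin filaments and die. Each filament pairs an acidic type I with a basic type II hair keratin, and the keratin-associated proteins, rich in cysteine or in glycine and tyrosine, embed and cross-link the filaments through disulfide bonds. Around the growing shaft lies the inner root sheath, which has keratins of its own, and both layers appear only in follicles that are making hair. Nude mice lack functional Foxn1, a transcription factor needed for a normal shaft, and form follicles whose hairs are weak and break. In RNA of a whole tumor, fewer cells of a type and less RNA per cell cannot be told apart.

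The hair shaft genes lie in gene clusters. The type I keratins and 23 of the Krtap genes are on chromosome 11 (GRCm38, chr11:99514114-100105626), the 5 type II keratins on chromosome 15 (chr15:101459061-101550667), 24 Krtap genes on chromosome 16 (chr16:88610705-89571183) and the other 10 on chromosomes 1, 7 and 10. Of the genes on chromosome 11, 26 of 32 had a count, of those on chromosome 15 all 5, and of those on chromosome 16 11 of 24. On chromosomes 1, 7 and 10 it was 5 of 10, with summed levels of at most 1.02 CPM (counts per 1000000 of TMM-scaled library size) in any tumor.

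The bases upstream of the transcription start are shown for the gene of each class with the highest mean CPM among the 60 members with an entry in RefSeq (GRCm38.p6), since these genes were high and low in the same tumors. Each line holds the 100 bases before the start, read 5′ to 3′ in the direction of transcription, with the TATA box sequence TATAAA in capitals where it occurs.
Krt34, chr11:100041555-100041654, minus strand, type I keratin: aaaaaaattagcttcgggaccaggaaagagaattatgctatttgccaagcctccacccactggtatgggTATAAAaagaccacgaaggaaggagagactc
Krt82, chr15:101550660-101550759, minus strand, type II keratin: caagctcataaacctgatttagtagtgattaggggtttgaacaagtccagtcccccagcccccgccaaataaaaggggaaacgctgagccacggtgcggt
Krtap4-6, chr11:99665961-99666060, minus strand, cysteine-rich Krtap: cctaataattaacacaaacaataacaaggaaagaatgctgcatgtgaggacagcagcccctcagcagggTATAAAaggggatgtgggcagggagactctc
Krtap8-1, chr16:89487953-89488052, minus strand, glycine/tyrosine-rich Krtap: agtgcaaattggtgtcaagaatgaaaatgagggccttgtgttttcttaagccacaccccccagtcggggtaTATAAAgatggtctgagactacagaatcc
Krtap3-1, chr11:99566631-99566730, minus strand, other Krtap: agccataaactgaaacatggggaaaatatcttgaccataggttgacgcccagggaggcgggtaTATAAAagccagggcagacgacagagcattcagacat
The letters TATAAA began 31 bases before the start in Krt34 and in Krtap4-6, 29 before it in Krtap8-1 and 37 before it in Krtap3-1, and did not occur in the window of Krt82. Within 250 bases upstream, on either strand, TATAAA was found in 47 of the 60 members (78.3%) and in 12.4% of all 32851 RefSeq promoters. By class it was found for 5 of 7 type I keratins, 1 of 2 type II keratins and 41 of 51 Krtap genes. The letters CTTTGAA, a match to the site of the TCF and LEF factors of WNT signaling, were found within 250 bases on either strand in 12 of the 60 members (20%), 5 of them type I keratins, and in 4.46% of all promoters. CTTTGAA does not overlap TATAAA in its letters. Both counts describe letters in a window and say nothing of what binds there.

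The 12 libraries held 9478865 to 11666094 counts. At this depth a count of 0 allows 3 counts, which is 0.251 to 0.349 CPM in a library, for counting error only. Summed over the 10 endothelial genes that served as the check on the tumor type, levels ran from 79.0 to 496 CPM, with Tie1 highest, and Emcn was below the filter on low counts. The 14 epidermal genes, led by Krt14, differed far more between tumors, from 4.18 to 4448 CPM. Skeletal muscle genes, led by Myh4, ran from 6.45 to 24004 CPM, 6 adipocyte genes, led by Plin1, reached at most 7.86 CPM, and the 5 melanocyte genes, led by Tyrp1, none of which passed the filter, reached at most 2.29 CPM.

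The summed level of the hair shaft genes was 1.19, 1.92 and 4.94 CPM in control 1, 2 and 3, from 14, 19 and 49 counts. In trametinib tumors it was 1.72, 0.697 and 0.0836 CPM, from 19, 6 and 1 counts. In cediranib tumors it was 0.499, 2.83 and 334 CPM, from 5, 30 and 3501 counts. Cediranib 3 thus stood apart from the other 2 tumors of its group. In combination tumors the sum was 211, 85.1 and 269 CPM, from 2097, 939 and 2903 counts. All 3 combination tumors were above every control and every trametinib tumor, and cediranib 3 was above all 3 of them. Cediranib 3 and the combination tumors held 9440 of the 9583 counts (98.5%). Of the 47 genes with a count, 28 had none in the other 8 tumors, where the largest count of any member was 14.

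**Figure D1:**
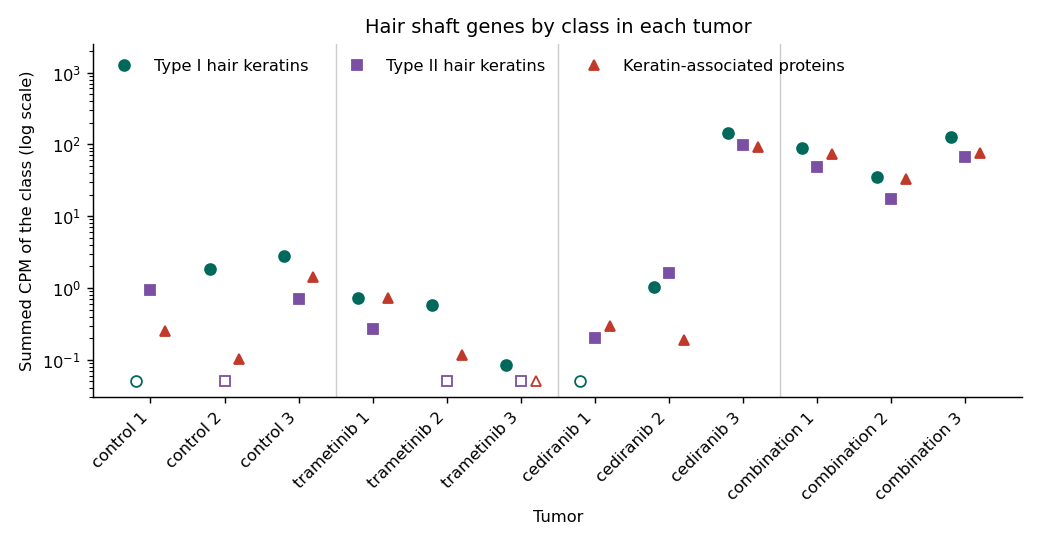
Summed CPM (log scale) of the 9 type I hair keratins, the 5 type II hair keratins and the 57 Krtap genes in each of the 12 tumors, open symbols marking sums of 0 counts. The 3 classes were high together, from 17.2 to 145 CPM, in cediranib 3 and the combination tumors, and at most 2.82 CPM in the other 8.

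The mean of the sum was 2.68 ± 1.99 CPM in control, 0.834 ± 0.828 in trametinib, 113 ± 192 in cediranib and 188 ± 94.1 in combination tumors (SD, n = 3 each). Over the pooled counts of each group, combination tumors had 72.0 times the control level (95% counting interval 57.9 to 90.7) and 227 times the trametinib level (155 to 348). These intervals cover counting error, not the spread between tumors. The pooled cediranib level was 43.8 times the control level (35.2 to 55.2), but this rests on cediranib 3. The log2 ratio of the group means was 5.39 with it and -0.69 without it. The combination to cediranib ratio was 0.74 on the log2 scale, and 6.82 without cediranib 3. The trametinib sum lay below that of control by 1.69 on the log2 scale as a difference of group means, with trametinib 1 inside the control range.

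Type I hair keratins made up 44.2% of all hair shaft counts. Krt34 (chr11:100037347-100041554), a keratin of the shaft's cortex, was at 0, 0 and 0.202 CPM in control, 0.181, 0 and 0 in trametinib, 0, 0 and 33.3 in cediranib, and 27.0, 11.5 and 28.1 in combination 1, 2 and 3. Its 3 combination values lay above all control and trametinib values, as did those of 15.6% of the genes tested against control and 12.3% against trametinib. Over the pooled counts, 698 against 2, Krt34 was 347 times higher in combination than in control tumors (95% counting interval 95.7 to 2871). It was the only hair shaft gene to pass the threshold in this comparison, with a log2 fold change of 8.20 (SE 2.18, FDR 0.0360 by the edgeR quasi-likelihood test, Benjamini-Hochberg adjusted), in a table where 3.61% of the genes tested were called. The call was lost when any 1 of the 6 tumors was left out, with edgeR FDRs from 0.0584 to 0.124.

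Krt35 is made in the matrix and lower cortex, earlier than Krt34. It was at 0, 0.202 and 0 CPM in control, 0 in all 3 trametinib tumors, 0, 0 and 25.4 in cediranib, and 26.8, 7.79 and 33.9 in combination tumors. Krt31, a cortex keratin, was at 0, 1.21 and 1.11 CPM in control, 0, 0.116 and 0 in trametinib, 0, 0 and 29.4 in cediranib, and 15.02, 8.43 and 30.4 in combination tumors. Both genes were high in the same 4 tumors as Krt34, and Krt31 had counts in 2 control tumors as well. Krt33a and Krt33b are cortex keratins of the same cluster, separated from Krt31 by Krt34. Krt33a was at 0, 0 and 0.504 CPM in control, 0 in all trametinib tumors, 0, 0 and 37.8 in cediranib, and 11.5, 3.62 and 20.0 in combination tumors. Krt33b was at 0 in all control tumors, 0, 0.465 and 0 CPM in trametinib, 0, 0.755 and 14.5 in cediranib, and 7.26, 2.27 and 10.7 in combination tumors. Each of these 4 genes was higher in every combination tumor than in every control and trametinib tumor, as were 15.6% of the genes tested against control and 12.3% against trametinib. The proteins of Krt31 and Krt33a are 95% identical in GENCODE M21, those of Krt31 and Krt33b 94.8% and those of Krt31 and Krt34 93.4%. Reads can therefore be shared among Krt31, Krt33a, Krt33b and Krt34.

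Krt36, known also from nail and tongue, had counts in control tumors too. It had 0, 4 and 10 counts in control, 6, 0 and 0 in trametinib, 0, 1 and 34 in cediranib, and 10, 17 and 36 in combination tumors. At 1.01 CPM both, control 3 and combination 1 could not be told apart, and Krt36 had the smallest pooled ratio of combination to control among the tested members with control counts, 4.47 (95% counting interval 2.48 to 8.65). Of the type I keratins below the filter, Krt32, a cuticle keratin, had 17 counts in all, Krt40 6 and Krt39 4. Krt32 overlaps an antisense gene, and without a stated strand setting its reads cannot be told from that gene's.

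The 5 type II keratins made up 25.7% of the counts. Krt81, Krt83 and Krt86 are the type II keratins of the cortex. Krt81 was at 0, 0 and 0.605 CPM in control, 0 in all trametinib tumors, 0, 0 and 42.1 in cediranib, and 15.5, 5.98 and 33.9 in combination tumors. Krt83 was at 0.340, 0 and 0 CPM in control, 0 in all trametinib tumors, 0.199, 0.566 and 29.99 in cediranib, and 9.17, 5.53 and 10.7 in combination tumors. Krt86 was at 0.595, 0 and 0.101 CPM in control, 0.0906, 0 and 0 in trametinib, 0, 0.755 and 14.997 in cediranib, and 13.3, 3.99 and 7.69 in combination tumors. All 3 were again high in the same 4 tumors, and each combination value lay above every control and trametinib value. Of the genes tested 15.6% lay so against control and 12.3% against trametinib. Their proteins are 95.4% identical to that of Krt81 or, for Krt81, to that of Krt86, so the split of reads among the 3 is uncertain.

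Krt82 and Krt84 complete the class. Krt82, a cuticle keratin, was at 0 in all control tumors, 0.181, 0 and 0 CPM in trametinib, 0, 0.283 and 8.88 in cediranib, and 9.78, 0.634 and 7.50 in combination tumors. Combination 2 held only 7 counts of Krt82 where the other 2 held 97 and 81. Krt84, known also from the tongue, had 0 counts outside 4 tumors, with 34 in cediranib 3 and 7, 12 and 67 in combination 1, 2 and 3. Krt84 was at least 28.5-fold higher in combination than in control tumors, taking 3 counts over the control group as the limit that 0 allows. Krt83 was the only hair shaft gene called between trametinib and cediranib (FDR 0.0493 by the edgeR quasi-likelihood test, Benjamini-Hochberg adjusted, in a comparison where 3.49% of genes were called). It was at least 109-fold lower in the pooled trametinib counts, and 314 of the 322 cediranib counts came from cediranib 3. Without cediranib 3, or without any 1 of the trametinib tumors, the edgeR FDR was 0.104 to 0.123.

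**Figure D2:**
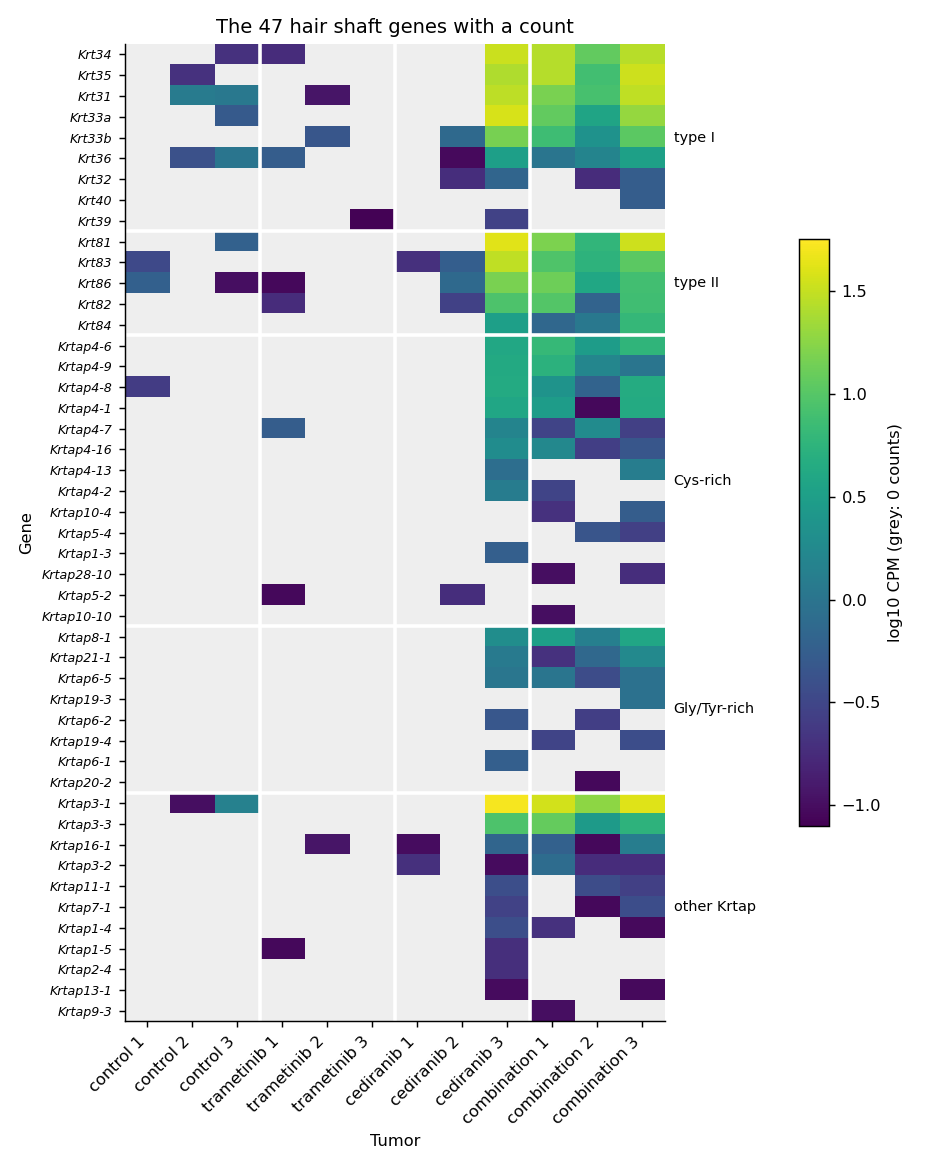
Level of each of the 47 hair shaft genes with a count (rows, by class and then by mean level) in each of the 12 tumors (columns), as log10 CPM, with 0 counts in grey. The right 4 columns, cediranib 3 and combination 1 to 3, hold counts of 37, 31, 30 and 36 members, and each of the other 8 tumors of 1 to 7.

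The Krtap genes made up 30.1% of the hair shaft counts, with 33 of 57 detected. Most of these counts came from the Krtap3 family on chromosome 11. Krtap3-1 (chr11:99566027-99566630) had the highest mean level of all 71 genes, and was at 0, 0.101 and 1.41 CPM in control, 0 in all trametinib tumors, 0, 0 and 51.4 in cediranib, and 36.1, 18.2 and 40.9 in combination tumors. Its pooled level was 66.3 times higher in combination than in control tumors (95% counting interval 39.99 to 119), and at least 332-fold higher than in trametinib tumors. Per kilobase of gene model it also led, with a mean of 52.5 CPM per kb in combination tumors against 13.8 for Krt34, the next. Krtap3-3 was at 0 in all control and trametinib tumors, 0, 0 and 8.88 CPM in cediranib, and 11.8, 2.81 and 5.56 in combination tumors, which is at least 68.9-fold higher in combination than in control. Its protein is identical to that of Krtap3-2, which had 15 counts in all, so the division of reads between the pair is uncertain.

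The cysteine-rich Krtap genes (over 30% cysteine in the GENCODE M21 protein) numbered 21, of which 14 had a count. Krtap4-6 was at 0 in all control and trametinib tumors, 0, 0 and 4.01 CPM in cediranib, and 6.45, 2.99 and 5.84 in combination tumors. It was at least 53.0-fold higher in combination than in control tumors. Krtap4-1, Krtap4-8 and Krtap4-9, from the same array, had 40, 46 and 45 counts in cediranib 3. In combination tumors Krtap4-1 had 30, 1 and 47 counts, Krtap4-8 had 23, 7 and 49, and Krtap4-9 had 54, 18 and 11. The 3 genes therefore did not rank the combination tumors alike. Krtap4-8 also had 3 counts in control 1, and its pooled ratio was 26.2 (95% counting interval 8.64 to 130), while Krtap4-1 and Krtap4-9 had 0 in all control and trametinib tumors.

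The 15 glycine/tyrosine-rich Krtap genes had at least 35% of these residues together and were not in the cysteine-rich class. Of these 8 had a count, and none had any count in the 8 tumors other than cediranib 3 and the combination tumors. Krtap8-1 had 21 counts in cediranib 3 and 32, 15 and 42 in combination tumors, at least 29.5-fold more than in control. Krtap6-5 had 11 in cediranib 3 and 10, 4 and 10 in combination tumors, at least 7.95-fold more than in control, and its protein is 98.7% identical to that of Krtap6-1. The class as a whole summed to 5.25 CPM in cediranib 3 and 4.74, 2.81 and 7.88 CPM in combination tumors, against 22.6 and 20.0, 7.97 and 18.8 CPM for the cysteine-rich class. Among the 28 detected genes that did not pass the filter, totals ran from 1 to 49 counts over the 12 tumors. The highest were Krtap4-7 with 49, Krtap4-16 with 45, Krtap21-1 with 41, Krtap16-1 with 30 and Krtap4-13 with 23. Krtap4-7 had 6 counts in trametinib 1 and 21 in combination 2. Counts outside cediranib 3 and the combination tumors were also found for Krt32, Krt39, Krtap3-2, Krtap1-5, Krtap16-1 and Krtap5-2, at 1 or 2 in a tumor, and Krtap5-2 had all 3 of its counts there. These were named after their values had been seen.

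Cediranib alone, trametinib alone and the combination were compared in 1 edgeR fit over all 12 tumors, in which a gene counted as called at an FDR of 0.05 and a log2 fold change of at least 1.5 in either direction. Of the 71 hair shaft genes 19 had enough counts to be tested, and since they passed the filter through cediranib 3 and the combination tumors they are not a fair sample of the 71. Between trametinib and control 0 were called by edgeR, with 0 at an unadjusted p under 0.05, where 2.4% of all genes were called. DESeq2 called 4 (Krt33a, Krt35, Krt81 and Krtap3-1) as lower in trametinib, where it called 3.29% of all genes. Of these Krt33a, Krt35 and Krt81 had 5, 2 and 6 control counts, each in 1 tumor, and Krtap3-1 had 0, 1 and 14. All 4 had 0 counts in trametinib tumors, so these DESeq2 calls rest on few counts. Between cediranib and control 0 were called by edgeR, 14 had an unadjusted p under 0.05, and 0% of all genes were called, while DESeq2 called Krtap3-3 and 0.0859% of all genes. DESeq2 gave an adjusted p to 11 of the 19 here, and the 93 cediranib counts of Krtap3-3 all came from cediranib 3. Between combination and cediranib edgeR and DESeq2 called 0, with 0 at an unadjusted p under 0.05, against 2.44% of all genes by edgeR and 3.14% by DESeq2.

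Between combination and trametinib edgeR called 0 of the hair shaft genes, with 18 at an unadjusted p under 0.05 and the smallest FDR of 0.0779 by edgeR's quasi-likelihood test for Krt86, in a comparison where 0.675% of all genes were called. DESeq2 called 8, each higher in combination tumors, and 2.69% of all genes. For combination against control DESeq2 called 4 (4.74% of all genes), and for trametinib against cediranib 8 as lower in trametinib (4.91%). As counts without a test, 23 of the 71 hair shaft genes had all 3 combination values above all 3 control values, where 15.6% of the genes tested did. For combination against trametinib 22 of the 71 did so, where 12.3% of the genes tested did. The bases differ, since the 71 include genes below the filter and 24 without any count, which cannot separate. Of the 19 tested members 18 did so against control and 19 against trametinib, but they passed the filter through cediranib 3 and the combination tumors. The change with cediranib did not pass as different with and without trametinib for any hair shaft gene (0 called by edgeR's interaction contrast, 0 at an unadjusted p under 0.05, smallest edgeR FDR 0.807, 0% of all genes called), and DESeq2 called 1, Krtap3-1, and 0.217% of all genes.

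The calls depended on whether cediranib 3 was in the shared fit, which takes 1 spread per gene from all 4 groups. With cediranib 3 left out of the shared fit, an alternative chosen after seeing the data, edgeR called 16 of the 19 higher in combination than in control tumors (3.56% of all genes were called) and 11 higher in combination than in trametinib tumors (0.726%). For Krt34 against control the log2 fold change stayed at 8.20 while its SE went from 2.18 to 0.79, with an edgeR FDR of 0.000656. With only the 2 compared groups in the fit, 14 hair shaft genes passed the filter and edgeR called 13 of them higher in combination than in control (4.04% of all genes) and 13 higher than in trametinib (2.27%). These 14 passed that filter through the combination tumors, where they were high, so their count is a description and not support. The exception in both was Krt36, at an edgeR FDR of 0.175 against control and 0.127 against trametinib.

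The make-up of the hair shaft RNA was compared among cediranib 3 and the combination tumors. Over the members with a count in either tumor of a pair, 37 to 43 genes, Spearman correlations of the counts lay between 0.777 and 0.845. These are a description across genes, which are not independent and share capture probes and lengths in every tumor. Krtap3-1 led in each of the 4. Krtap genes took 27.0% of the hair shaft counts in cediranib 3 (exact 95% interval 25.6 to 28.6), and 35.1% (33.1 to 37.2), 38.2% (35.1 to 41.4) and 28.0% (26.4 to 29.7) in combination 1, 2 and 3. The shares in cediranib 3 and combination 3 differed by less than the counting error, and both lay below those of combination 1 and 2. Krtap3-1 alone took 15.4%, 17.1%, 21.4% and 15.2% in cediranib 3 and combination 1, 2 and 3. Krt33a took 11.3% in cediranib 3 and 5.44%, 4.26% and 7.44% in combination tumors, and Krt83 took 8.97% against 4.34%, 6.50% and 3.996%. Of the 19 tested members 8, of them 6 keratins, were higher in cediranib 3 than in every combination tumor, and the other 11 lay within the combination range. In 16 of the 19 combination 2 had the lowest value of the 3 combination tumors.

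**Figure D3:**
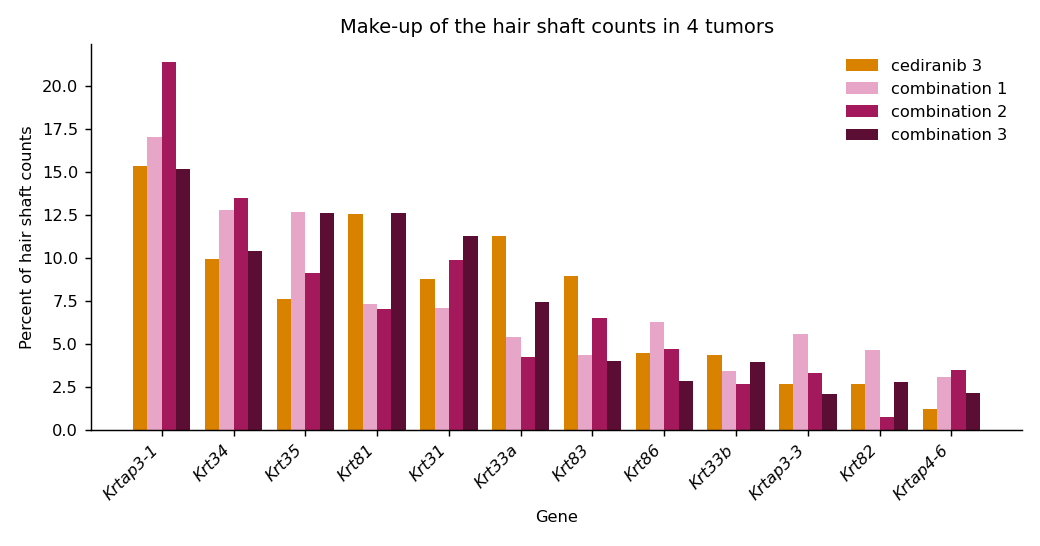
Share of the hair shaft counts, in percent, taken by the 12 genes with the highest mean share, in cediranib 3 and combination 1, 2 and 3. Krtap3-1 was the highest bar in each tumor, at 15.2% to 21.4%, and Krt34 took 9.97% to 13.5%.

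Of 7 genes that act with the shaft proteins (Padi3, Tgm3, S100a3, Dsg4, Gprc5d, Vsig8 and Hephl1) 6 were tested, and edgeR called 2 higher in combination than in control tumors, where 3.61% of all genes were called. Tgm3, a transglutaminase that cross-links shaft and epidermal proteins, was at 0.170, 0 and 0 CPM in control, 0 in all trametinib tumors, 2.69, 0 and 2.20 in cediranib, and 3.73, 6.98 and 3.43 in combination tumors (log2 fold change against control 5.99, SE 1.30, FDR 0.0202 by edgeR). Tgm3 was thus no lower in cediranib 1, which had 5 hair shaft counts, than in cediranib 3. Hephl1, a ferroxidase known from hair defects, had a log2 fold change of 5.55 (SE 1.10, FDR 0.0109 by edgeR). Both folds rest on 1 or 2 control counts. Tgm3 was also called higher in combination than in trametinib tumors and, with Hephl1, lower in trametinib than in cediranib tumors. Vsig8, a shaft cuticle protein, had the highest mean of the group, at 10.5 CPM in cediranib 3, 6.86, 4.26 and 4.63 in combination tumors and at most 1.11 elsewhere. Dsg4, the desmoglein of the shaft, had 0 counts in all control and trametinib tumors, 1.24 CPM in cediranib 3 and 1.51, 0.453 and 1.30 CPM in combination tumors. Padi3 and S100a3 overlapped between groups, with Padi3 at 1.30 CPM in cediranib 1 against 1.21 and 0.997 in combination 1 and 2, and Gprc5d, not tested, was highest in control 1, at 0.255 CPM.

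Of 11 regulators of the hair lineage 8 were tested. Hoxc13, which acts directly on hair keratin genes, was below the filter, at 0.669 CPM in cediranib 3, 0.605, 0.634 and 1.11 in combination tumors and at most 0.299 elsewhere. Foxn1 was at most 0.371 CPM in any tumor, and Shh, a matrix signal, was at 1.53 CPM in cediranib 3, at most 0.371 in combination tumors and 0 elsewhere. Both were below the filter as well. Msx2, a homeobox factor of the matrix, was called higher in combination than in control tumors (log2 fold change 4.36, SE 1.15, FDR 0.0349 by edgeR), at 2.29 CPM in cediranib 3, 3.83, 1.99 and 4.54 in combination tumors and at most 0.272 elsewhere. Ovol1, a factor of epidermal and follicle differentiation, was called higher in combination than in control (5.24, SE 1.14, FDR 0.0202 by edgeR) and than in trametinib tumors.

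Dlx3 and Wnt10b were higher in trametinib tumors, where the hair shaft genes were not. Dlx3, a homeobox factor of the shaft and also of other tissues, had the highest mean of the group and was at 3.996, 2.83 and 1.31 CPM in control, 29.5, 32.6 and 28.7 in trametinib, 2.99, 2.36 and 10.5 in cediranib, and 29.0, 42.8 and 28.0 in combination tumors. It rose by 3.46 on the log2 scale in trametinib (SE 0.52, FDR 0.00248 by edgeR) and by 3.60 in combination tumors (SE 0.52, FDR 0.00265) against control. Wnt10b, a WNT ligand of the growing follicle, rose by 4.11 in trametinib (SE 0.68, FDR 0.00429 by edgeR) and by 2.51 in combination tumors (SE 0.66, FDR 0.0350) against control. Trametinib tumors, in which these 2 were high, held 19, 6 and 1 hair shaft counts. Dlx3 and Wnt10b were also called higher in combination and in trametinib than in cediranib tumors. Gata3, a factor of the inner root sheath, was called higher in combination than in trametinib tumors (1.73, SE 0.36, FDR 0.0475 by edgeR), and Ovol1 was called lower in trametinib than in cediranib tumors. Lef1, Foxq1 and Foxe1 were not called in any comparison.

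The inner root sheath genes were high in the same 4 tumors as the hair shaft genes. Their summed level over 9 genes was 598 CPM in cediranib 3, 329, 194 and 441 CPM in combination 1, 2 and 3, and at most 1.11 CPM in the other 8 tumors. The order of these 4 tumors was that of the hair shaft sum. Krt71, the main type II keratin of the sheath, was at 354 CPM in cediranib 3, 212, 110 and 269 in combination tumors and at most 0.807 elsewhere. EdgeR called Krt25 (log2 fold change 8.73, SE 2.31, FDR 0.0351), Krt27 (7.62, SE 2.05, FDR 0.0375), Krt71 (8.65, SE 2.26, FDR 0.0339) and Krt73 (9.16, SE 2.503, FDR 0.0465) higher in combination than in control tumors, 4 of 6 tested. In this comparison 3.61% of all genes were called. For Krt27 and Krt73 the control counts were 2 and 1, so the fitted fold depends on very few counts. Krt27 and Krt71 were called lower in trametinib than in cediranib tumors (3.49% of all genes called), and 0 of the 6 were called between combination and trametinib (0.675%).

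Epidermal genes did not track the hair shaft genes in every tumor. Their summed level was 629, 44.2 and 22.0 CPM in control, 10.4, 8.83 and 4.18 in trametinib, 2869, 45.3 and 1775 in cediranib, and 2953, 4448 and 3173 in combination tumors. Cediranib 1 had an epidermal level above that of cediranib 3 but a hair shaft level of 0.499 CPM against 334. Per 100 epidermal CPM this is 0.0174 hair shaft CPM in cediranib 1, 18.8 in cediranib 3 and 7.16, 1.91 and 8.48 in combination 1, 2 and 3. Combination 2 had the highest epidermal level of the 12 tumors and the lowest hair shaft level of its group. Control 1, with 629 epidermal CPM, had 14 hair shaft counts. High epidermal levels were thus found both with high and with low hair shaft levels, while hair shaft levels above 5 CPM were found only in tumors with at least 1775 epidermal CPM. The part of epidermal or follicle tissue in the group differences was not tested.

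**Figure D4:**
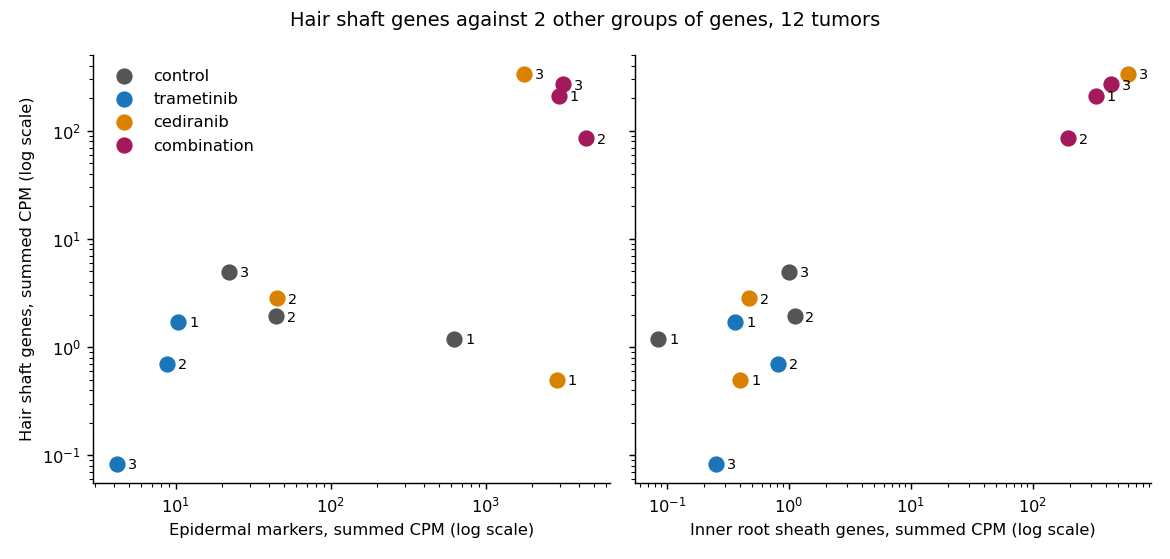
Summed CPM of the 71 hair shaft genes (vertical, log scale) against that of 14 epidermal genes (left) and of 9 inner root sheath genes (right), with 1 point per tumor numbered by replicate and colored by group. Cediranib 1 lay at 2869 epidermal CPM with 0.499 hair shaft CPM, and cediranib 3 and the combination tumors lay apart at the top right of both panels.

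Of the other skin groups, the follicle stem cell genes (Krt15, Lgr5, Lhx2, Sox9 and Tcf7l1) summed to 98.3 to 266 CPM, mostly from Sox9, the highest, and Tcf7l1. Krt15 ran from 0 in trametinib 2 and 3 to 105 CPM in combination 3, with 38.6 in cediranib 1. EdgeR called 3 of these 5 genes higher in combination than in control tumors, where 3.61% of all genes were called. The 3 were Krt15 (log2 fold change 4.25, SE 1.20, FDR 0.0436), Lhx2 (3.39, SE 0.84, FDR 0.0273) and Tcf7l1 (1.77, SE 0.31, FDR 0.00645), and Tcf7l1 was also called higher in trametinib than in control tumors. The 5 sebaceous gland genes, led by Far2, ran from 13.1 to 30.4 CPM, with 30.4 in cediranib 3 and 26.1, 19.4 and 28.4 in combination tumors against 13.1 to 22.4 in the others. Among epidermal genes edgeR called Lor, Sfn and Trp63 higher in combination than in control tumors, and Ivl lower in trametinib than in control tumors. Of the endothelial genes Pecam1, Cdh5, Kdr and Tie1 were called lower in combination, and Pecam1, Cdh5, Flt1 and Tie1 lower in trametinib, than in control tumors. Against trametinib, Krt15, Ivl, Lor, Dsp and Sfn were called higher in combination tumors. Against cediranib, Tcf7l1 was called higher and Pecam1 and Tie1 lower both in combination and in trametinib tumors, Cdh5 was called lower in combination tumors, and Krt15, Krt14, Ivl, Lor, Dsp, Sfn, Perp and Cdh1 were called lower in trametinib tumors. No sebaceous gland, melanocyte, skeletal muscle or adipocyte gene was called by edgeR in any comparison.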

How the data were processed

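Raw counts per gene of 12 SVR xenograft tumors, 3 per treatment, were analysed. According to the submitters' processing notes, base calling used bcl2fastq 1.8.4, alignment STAR 2.7.1a and counting featureCounts 1.6.0 from Subread, on GRCm38. The authors deposited these counts without normalization. How strand and multi-mapped reads were treated, and with which annotation, is not given in the sources read here. Counts of overlapping or near-identical genes are therefore uncertain, and 15 of the 71 members have a protein at least 95% identical to that of another member. Exome capture probes set how well each gene was caught, so levels of different genes compare only roughly. Coordinates are those of the deposited table, and protein composition came from GENCODE M21.

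Tumors were grouped by title and treatment label. Genes passing filterByExpr (minimum count 10, minimum total 15), 12897 in all, were fitted with TMM and the quasi-likelihood test of edgeR 4.0.16 in R 4.3.3, all 12 libraries in 1 fit. The paper names edgeR and the threshold, while the filter and the choice of libraries for a fit were set here. P-values were adjusted by Benjamini-Hochberg over all genes tested. Standard errors were the absolute log2 fold change over the square root of F. The labels do not say that the tumors came from separate mice, and p-values measure the spread between these tumors. CPM were counts over the TMM-scaled library size, times 1000000. A fold against a group at 0 was set against 3 counts over the group, and share intervals are exact binomial (Clopper-Pearson). Alternatives were RLE or library totals, no filter, DESeq2 1.42.0, fits of 2 groups, a replicate block and leaving out single tumors. No p was computed for sums over the members.

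The members, the gene lists and the tests were chosen with earlier results of these data known. Values in every tumor are given for Krt34, the 12 members with the highest mean CPM and every member called. The other tested members and the 5 highest that were not tested are named with counts, and of the other lists every gene called and the one with the highest mean.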

Additional observations from a re-analysis of the deposited data

How the results depend on the processing

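The log2 ratios of the summed level kept their direction under other scalings, with keratins or Krtap genes alone and without Krtap3-1. Leaving out single tumors gave 5.78 to 6.92 for combination against control, 7.28 to 8.92 against trametinib, -2.78 to -0.90 for trametinib against control, -0.69 to 6.18 for cediranib against control (reversed without cediranib 3), 0.16 to 6.82 for combination against cediranib and -8.17 to -0.998 for trametinib against cediranib.

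Counts of called hair shaft genes moved more, and where no value is given for it the cause was not tested. Each count is followed by the percent of all genes called under the same setting. For combination against control, 1 (3.61%) in the fit described, they were 5 (3.95%) with library totals, 24 (3.88%) with no filter, 4 (4.74%) with DESeq2, 13 (4.04%) with only 2 groups and 16 (3.56%) with cediranib 3 out of the shared fit. They were 0 (1.77% to 4.29%) without any 1 of the 6 control and combination tumors. For combination against trametinib, from 0 (0.675%), they were 21 (2.66%) with no filter, 8 (2.69%) with DESeq2, 13 (2.27%) with only 2 groups and 11 (0.726%) with cediranib 3 out. For trametinib against control, from 0 (2.4%), they were 2 (2.36%) with no filter and 4 (3.29%) with DESeq2, and for cediranib against control, from 0 (0%), 19 (1.11%) with no filter and 1 (0.0859%) with DESeq2. For combination against cediranib, from 0 (2.44%), they were 2 (2.19%) with no filter and 0 to 11 (1.41% to 2.06%) when single tumors were left out, with 11 (2.06%) without cediranib 3. For trametinib against cediranib, from 1 (3.49%), they were 2 (3.49%) with library totals, 21 (3.34%) with no filter, 8 (4.91%) with DESeq2 and 0 to 8 (1.9% to 4.2%) when single tumors were left out, with 8 (4.2%) without cediranib 2. The interaction, from 0 (0%), gave 2 (0.897%) with no filter and 1 (0.217%) with DESeq2. The counts with no filter are doubtful: edgeR's smallest FDR among hair shaft genes was then 1.99e-44 for cediranib against control, where the counts come from 1 tumor. DESeq2 gave Krt34 no adjusted p for combination against control. Fits of 2 groups gave no value for trametinib against control or against cediranib, since no hair shaft gene passed the filter there. Library totals shifted the median of all genes by 0.13 for combination against control.

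Replicate numbers do not pair the tumors. Of 18 same-numbered pairs 3 had deviations that correlated above 0.1 (-0.22 to 0.36), and 4 of 12 tumors correlated best with their own number. A replicate block gave 10 called hair shaft genes (3.47% of all genes) for combination against control and 0 (3.2%) for trametinib against cediranib. Among 319 values of single genes under alternatives, 220 kept their side of the threshold, 88 passed it newly and 11 no longer did, and none changed sign. They cover the 12 members with the highest mean CPM in combination against control and against trametinib, and Krt83 in trametinib against cediranib. Values without an adjusted p were left out. These members were high through the combination tumors and cediranib 3, so the steady sign is a description and not support. Cediranib against control, whose summed ratio reversed without cediranib 3, was not among the 319.

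With 3 tumors per group, cediranib 3 decides what the cediranib group shows. Single counts of most Krtap genes lie at or near the limit that 0 allows, so their absence in 8 tumors means not detectable at this depth.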
